A study of Homo sapiens with 2 samples.

Results

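Ribosome biogenesis factors are the proteins that cut, modify, fold and assemble ribosomal RNA with ribosomal proteins. The group described here holds 57 genes, chosen by name from snoRNP proteins, the processome, 60S maturation factors and RNase P/MRP, out of 50229 gene symbols in the deposited table. The siVCP-labelled library came from ARP1 cells treated as a VCP knockdown, and the siNC-labelled library came from ARP1 cells treated as a control. ARP1 is a human myeloma line, a tumor of antibody-secreting plasma cells, and all RNA came from this 1 line. VCP encodes p97, an ATPase that pulls ubiquitin-marked proteins out of complexes. The siRNA sequence, its dose and the time after transfection are not stated in the labels used here.

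Ribosomes are built in the nucleolus, where RNA polymerase I makes a long precursor of the ribosomal RNAs. Box C/D and box H/ACA snoRNPs use small guide RNAs to methylate ribose and to convert uridine to pseudouridine in this precursor. The processome assembles around the precursor with the U3 snoRNP and releases the small subunit (40S), while a separate set of factors matures the large subunit (60S). RNase MRP cuts the precursor and shares most of its proteins with RNase P, which trims transfer RNA precursors. Cells that make much protein, such as plasma cells and dividing tumor cells, run this pathway at a high rate, and the transcription factor MYC is known to drive many of its genes through the E-box CACGTG.

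Both libraries were single, so the spread between replicates is unknown, nothing was tested, and every difference is one between 2 libraries. Summed over rows, the siVCP-labelled library held 68872657 counts and the siNC-labelled library 72566092. VCP itself went against its label, with an FPKM of 65.9 in the siVCP-labelled library and 47.7 in the siNC-labelled library. Directions below therefore follow the labels alone, since lower VCP was not seen. FPKM is a level per length of transcript, so levels can be compared between genes. The log2 ratio adds 1 to the FPKM of each library before division, siVCP over siNC, and so shrinks differences of low genes. Folds are plain FPKM ratios, and brackets hold 95% intervals that cover counting error only. The 7 plasma cell markers summed to an FPKM of 1133 in the siVCP-labelled library and 1123 in the siNC-labelled library. Among them PRDM1 had 46.6 under the siVCP label and 69.8 under the siNC label, and CD38 had 15.3 under the siVCP label and 21.6 under the siNC label. SDC1 went the other way, with 257 under the siVCP label and 223 under the siNC label. In the same order of labels IRF4 had 186 and 178, TNFRSF17 48.5 and 46.8, XBP1 434 and 437, and MZB1 145 and 146. In the 6 lists of B cell, T cell, myeloid, stromal, epithelial and erythroid markers the highest single value was 2.36 in the siVCP-labelled library and 4.94 in the siNC-labelled library. As in any bulk sample, fewer cells of a type and less RNA per cell cannot be told apart.

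Promoter sequences are shown first because they hold a letter sequence, the E-box, that these genes carry more often than most. RefSeq promoter windows on GRCh38.p14 run from 250 bases before to 50 after each gene start, and 50 of the 57 genes had at least 1 window. The palindrome CACGTG, which reads the same on both strands, was found in 21 of these 50 genes (42.0%), at 25 sites. It was found in 13.2% of the 8135 measured genes with a window. Counted by window, it was in 22 of 56 windows of the group (39.3%) and 7.26% of all 35116 windows in the table. The stretches below hold the word in capitals with up to 20 bases on each side, for 4 genes with higher and 3 with lower FPKM in the siVCP-labelled library. They were picked after the values were seen, to show the same word beside differences of both signs. Of those lower, GNL2 had an interval of the fold that held 1 [0.869 to 1.05].
EBNA1BP2 (chr1:43172782-43172820, minus strand): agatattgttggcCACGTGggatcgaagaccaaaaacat
RRP9 (chr3:51941884-51941929, minus strand): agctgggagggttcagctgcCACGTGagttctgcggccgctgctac
PWP2 (chr21:44107380-44107425, plus strand): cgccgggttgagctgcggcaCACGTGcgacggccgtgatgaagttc
UTP4 (chr16:69132613-69132658, plus strand): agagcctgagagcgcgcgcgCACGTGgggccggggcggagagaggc
GNL2 (chr1:37595909-37595954, minus strand): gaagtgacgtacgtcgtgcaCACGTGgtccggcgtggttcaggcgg
DDX21 (chr10:68956596-68956641, plus strand): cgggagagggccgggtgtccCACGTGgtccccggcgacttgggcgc
UTP20 (chr12:101280075-101280120, plus strand): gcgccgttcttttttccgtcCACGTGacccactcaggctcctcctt

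The first base of the printed word lies 237 bases before 1 of the 2 RefSeq starts in EBNA1BP2. A second site in EBNA1BP2, not printed, begins at base 43 counted from the other start. The first base of the word lies 31 bases before 1 of the 2 starts in DDX21. Before the single start it lies 16 bases away in UTP4, 10 in UTP20 and 5 in RRP9. In PWP2 it begins at base 2 of the transcript and in GNL2 at base 4. These RefSeq starts are not always those of the deposited rows. The row of UTP4 begins at 69131291 and that of DDX21 at 68956170, both on the plus strand. The row of EBNA1BP2 begins at 43261910 on the minus strand, so in these genes the word lies inside the deposited row. A match is a description of the letters and not a measured binding site.

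Most of the 57 genes were somewhat higher in the siVCP-labelled library. In all 57 one or both libraries reached an FPKM of 1, and none was lost to this filter. Their log2 ratios had a median of 0.27, against -0.02 over all 11645 genes measured, and 43 of the 57 lay above 0, where 47.2% of all genes did. On the log2 ratio scale 8 genes (14.0%) were at least 1.5-fold higher, beside 4.53% of all genes, and 0 were at least 1.5-fold lower, beside 5.87% of all genes. By plain FPKM ratio 11 genes passed 1.5-fold upward, beside 6.89% of all genes, and 0 downward, beside 12.3%. At least 2-fold higher was 1 gene, RPP38, beside 1.05% of all genes, and 0 were at least 2-fold lower, beside 1.31%. The counting interval of the fold lay wholly above 1 for 36 genes, beside 28.6% of the 11587 genes with fragments in both libraries, and wholly below 1 for 9, beside 32.2%. It held 1 for 12. These intervals narrow as counts rise, and the 57 genes were more abundant than most (median of the mean FPKM 13.1 against 5.06). The shares for intervals are thus not like for like. The count of genes at least 1.5-fold higher was 5 with a pseudocount of 5, beside 1.4% of all genes, and 13 with CPM from the counts, beside 6.32%. Without genes that overlap a counted row on either strand it was 3 of 28, beside 3.63%.

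**Figure D1:**
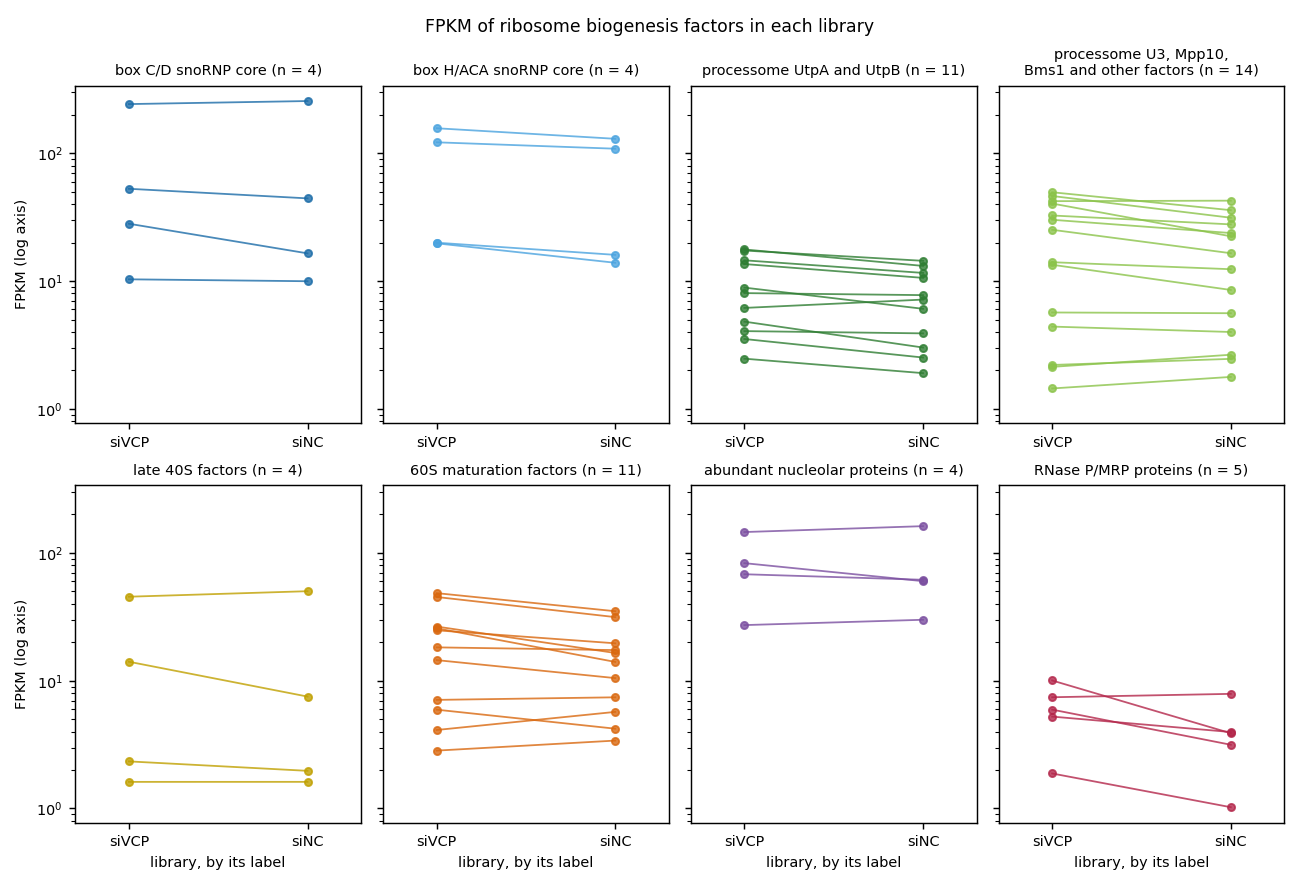
Each line joins the FPKM of 1 gene (log axis) in the siVCP-labelled library, left, and the siNC-labelled library, right, in a panel for each of 8 roles. Levels differ far more between genes than between libraries, from 1.44 (UTP20) to 243 (FBL) in the siVCP-labelled library, and in the panel of UtpA and UtpB 10 of 11 lines end lower in the siNC-labelled library.

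The box C/D snoRNP core, which carries out ribose methylation, did not move as one. NOP56 had an FPKM of 28.1 in the siVCP-labelled library and 16.5 in the siNC-labelled library, a 1.71-fold difference [1.61 to 1.81]. Its paralog NOP58 had 10.3 under the siVCP label and 9.97 under the siNC label, with an interval of the fold that held 1 [0.931 to 1.15]. FBL, the methyltransferase fibrillarin and the most abundant of all 57 transcripts, had 243 under the siVCP label and 256 under the siNC label, a log2 ratio of -0.08. SNU13, the protein that first binds the guide RNA's kink-turn, had 52.8 under the siVCP label and 44.4 under the siNC label, a 1.19-fold difference. NOP56 and NOP58 sit side by side in the same particle. SNU13 overlaps C22orf46 on the opposite strand, a row with 1721 counts under the siVCP label and 346 under the siNC label. The median log2 ratio of the 4 genes was 0.14, and without genes that overlap a counted row on the same strand only FBL remained, at -0.08. The rows that removed NOP56 held 1 count each in each library, and those that removed NOP58 held at most 11. The row that removed SNU13 held 92 counts under the siVCP label and 55 under the siNC label.

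The box H/ACA core, which makes pseudouridine and is also part of telomerase, was higher throughout in the siVCP-labelled library. DKC1, the pseudouridine synthase dyskerin, had an FPKM of 19.97 there and 16.0 in the siNC-labelled library, a 1.25-fold difference [1.16 to 1.34]. GAR1 had 19.7 under the siVCP label and 13.9 under the siNC label (1.42-fold [1.28 to 1.58]). NHP2, related to SNU13, had 157 under the siVCP label and 130 under the siNC label (1.21-fold). NOP10, the smallest of the core proteins, had 122 under the siVCP label and 109 under the siNC label (1.12-fold [1.04 to 1.22]). All 4 log2 ratios lay between 0.17 and 0.48 with a median of 0.29, and none passed 1.5-fold. The transcripts of NHP2 and NOP10 were several times as abundant as those of DKC1 and GAR1 in both libraries.

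UtpA and UtpB are the subcomplexes that bind the precursor first and start the processome. Of their 11 genes 10 were above 0 and none passed 1.5-fold on the log2 ratio scale, with a median of 0.30. Of UtpB, PWP2 had an FPKM of 4.81 in the siVCP-labelled library and 3.02 in the siNC-labelled library, a log2 ratio of 0.53, and its plain FPKM ratio was 1.595 [1.41 to 1.80]. UTP6 had 8.89 under the siVCP label and 6.07 under the siNC label (1.47-fold [1.34 to 1.603]), and WDR3 3.52 under the siVCP label and 2.52 under the siNC label (1.396-fold). TBL3 and UTP18 had log2 ratios of 0.33 and 0.30. WDR36, the last UtpB gene, had 0.05, and its interval held 1. Of UtpA, UTP4, known as cirhin, had 17.7 under the siVCP label and 13.1 under the siNC label (1.35-fold [1.26 to 1.44]), UTP15 had a log2 ratio of 0.26 and WDR43 one of 0.25. HEATR1, a very large scaffold protein, had 8.05 under the siVCP label and 7.76 under the siNC label and a log2 ratio of 0.05. UTP4 overlaps SNTB2 on the same strand, a row with 3279 counts under the siVCP label and 5046 under the siNC label. WDR75 was the exception with 6.16 under the siVCP label and 7.16 under the siNC label, a log2 ratio of -0.19.

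The other processome factors were spread widely. RRP9, the protein that marks U3 among the box C/D RNAs, had an FPKM of 40.4 in the siVCP-labelled library and 22.4 in the siNC-labelled library, a 1.80-fold difference [1.65 to 1.98]. EMG1, a methyltransferase of the small subunit RNA, had 13.4 under the siVCP label and 8.52 under the siNC label and lay just past 1.5-fold with a log2 ratio of 0.60. NOC4L, the partner of NOP14, lay just short of it on the log2 ratio scale, at 0.58. It had 25.2 under the siVCP label and 16.5 under the siNC label. Its plain FPKM ratio, 1.53 [1.39 to 1.68], was past 1.5-fold. NOP14 itself had 49.6 under the siVCP label and 35.9 under the siNC label (0.46), so these 3 proteins, known to act together in yeast, all had higher transcripts in the siVCP-labelled library. EMG1 overlaps LPCAT3 on the opposite strand, a row with 4977 counts in the siVCP-labelled library and 5291 in the siNC-labelled library.

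The Mpp10 complex joins the U3 RNA to the processome, and its genes were uneven. IMP3 had an FPKM of 46.3 in the siVCP-labelled library and 31.3 in the siNC-labelled library (1.48-fold [1.39 to 1.57]). IMP4 had 32.6 under the siVCP label and 27.8 under the siNC label (1.17-fold). MPHOSPH10, which encodes Mpp10, had 2.20 under the siVCP label and 2.46 under the siNC label, with an interval that held 1 [0.738 to 1.09]. UTP3 had 42.2 under the siVCP label and 42.6 under the siNC label, a log2 ratio of -0.01. The GTPase BMS1 and its partner RCL1 had log2 ratios of 0.02 and 0.11, and the intervals of both folds held 1. Pseudogene rows of BMS1 held counts equal to 23.3% of its own under the siVCP label and 18.7% under the siNC label. NAT10, which acetylates cytidines of the small subunit RNA, had 30.2 under the siVCP label and 23.8 under the siNC label (1.27-fold), and UTP14A, an activator of the helicase that displaces U3, had 14.0 under the siVCP label and 12.4 under the siNC label (1.13-fold). The helicase gene DDX10 had 2.13 under the siVCP label and 2.65 under the siNC label (-0.22), and UTP20, another large scaffold, had 1.44 under the siVCP label and 1.78 under the siNC label (-0.18). Over the 14 genes the median log2 ratio was 0.20.

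Among the 4 factors of late 40S maturation only RRP12 stood out. RRP12, which in yeast helps to export both subunits from the nucleus, had an FPKM of 14.1 in the siVCP-labelled library and 7.51 in the siNC-labelled library, a 1.87-fold difference [1.75 to 2.002]. NOB1, the nuclease that makes the final 3' end of the small subunit RNA, had 45.4 under the siVCP label and 50.2 under the siNC label, a log2 ratio of -0.14. The kinases RIOK1 and RIOK2, which act on the cytoplasmic particle, were low, with an FPKM of 2.34 under the siVCP label and 1.97 under the siNC label for RIOK1. RIOK2 had 1.61 under the siVCP label and 1.62 under the siNC label. Both intervals held 1.

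The 60S factors had a median log2 ratio of 0.41 over 11 genes, and of 0.28 with a pseudocount of 5. EBNA1BP2 had an FPKM of 25.7 in the siVCP-labelled library and 14.0 in the siNC-labelled library, a 1.83-fold difference [1.70 to 1.98]. NOP2, a methyltransferase of the large subunit RNA long known as the proliferation antigen p120, had 26.5 under the siVCP label and 16.5 under the siNC label (1.61-fold [1.51 to 1.71]). The 3 proteins of the PeBoW complex, which is needed to process the large subunit RNA, were all higher in the siVCP-labelled library. PES1 had 45.2 under the siVCP label and 31.5 under the siNC label (1.44-fold), WDR12 5.93 under the siVCP label and 4.21 under the siNC label (1.41-fold) and BOP1 24.8 under the siVCP label and 19.6 under the siNC label (1.26-fold). NOC2L had 48.5 under the siVCP label and 35.0 under the siNC label (1.39-fold [1.33 to 1.44]), whereas NOC3L, its partner, had 2.84 under the siVCP label and 3.40 under the siNC label, a log2 ratio of -0.20.

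The GTPases of the large subunit differed among themselves. LSG1, which frees the export adaptor NMD3 from the particle in the cytoplasm, had an FPKM of 14.5 in the siVCP-labelled library and 10.48 in the siNC-labelled library (1.38-fold [1.28 to 1.497]). NMD3 itself had 4.11 under the siVCP label and 5.70 under the siNC label and the lowest log2 ratio of all 57 genes, -0.39. GNL3, known as nucleostemin, had 18.2 under the siVCP label and 17.4 under the siNC label, and GNL2 had 7.08 under the siVCP label and 7.41 under the siNC label. Both of these intervals held 1.

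The abundant nucleolar proteins showed no common direction. NOLC1, a chaperone of snoRNPs, had an FPKM of 83.2 in the siVCP-labelled library and 60.1 in the siNC-labelled library (1.38-fold [1.33 to 1.43]), and NCL, nucleolin, had 68.1 under the siVCP label and 61.6 under the siNC label (1.10-fold [1.07 to 1.14]). NPM1, nucleophosmin, had 146 under the siVCP label and 162 under the siNC label, a log2 ratio of -0.15, and the helicase gene DDX21 had 27.2 under the siVCP label and 29.99 under the siNC label, a log2 ratio of -0.13. NPM1 has many processed pseudogenes, and 16 such rows held 2741 counts in the siVCP-labelled library and 3418 in the siNC-labelled library. Set beside NPM1 itself these counts came to 5.95% under the siVCP label and 6.33% under the siNC label.

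RNase P/MRP proteins had a median log2 ratio of 0.51 over 5 genes of low level. This value depended on the pseudocount, at 0.82 with one of 0.1 and 0.19 with one of 5. RPP38, an RNA-binding protein of the L7Ae family like NHP2 and SNU13, had an FPKM of 10.0 in the siVCP-labelled library and 3.88 in the siNC-labelled library, a 2.59-fold difference [2.15 to 3.12] and the highest of all 57 as labelled. As siNC over siVCP the same ratio is 0.386 [0.320 to 0.465], the lowest of the 57. It overlaps NMT2 on the opposite strand, a row with 715 counts in the siVCP-labelled library and 915 in the siNC-labelled library. POP1, the largest protein of the particle, had 5.94 under the siVCP label and 3.15 under the siNC label (1.88-fold [1.65 to 2.16]). RPP40 had 1.88 under the siVCP label and 1.02 under the siNC label, resting on 308 counts under the siVCP label and 178 under the siNC label, so that its interval was wide [1.25 to 2.72]. RPP30 had 5.24 under the siVCP label and 3.97 under the siNC label (1.32-fold), and POP4 had 7.42 under the siVCP label and 7.89 under the siNC label, with an interval that held 1.

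**Figure D2:**
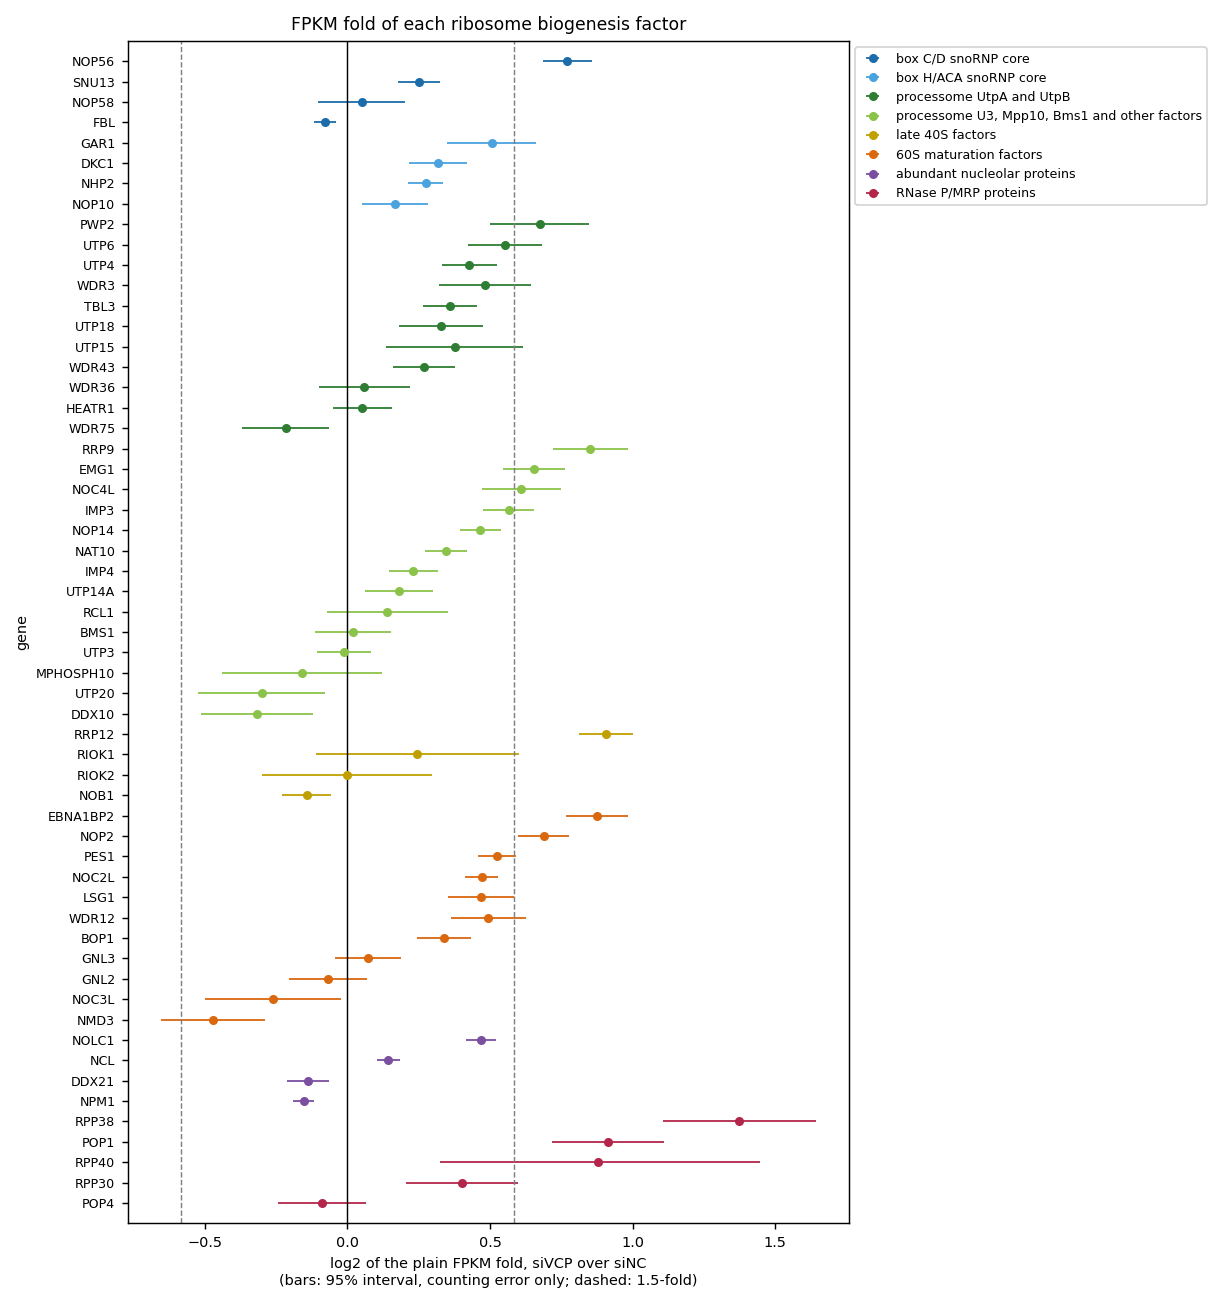
Points are log2 of the plain FPKM fold of each gene, siVCP over siNC, with 95% bars that cover counting error only, colored and grouped by role. The dashed lines mark 1.5-fold. RPP38 lies farthest to the right and NMD3 farthest to the left, and the 4 box H/ACA genes all lie to the right of 0.

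The genes of largest difference lie on several chromosomes, by the deposited coordinates, taken as GRCh38. RPP38 (ENSG00000152464) spans 15097180 to 15139818 on the plus strand of chromosome 10, and RRP12 (ENSG00000052749) spans 97356358 to 97426076 on its minus strand. EBNA1BP2 (ENSG00000117395) spans 43164175 to 43261910 on the minus strand of chromosome 1. RRP9 (ENSG00000114767) spans 51933429 to 51941904 on the minus strand of chromosome 3. POP1 (ENSG00000104356) spans 98117293 to 98159835 on the plus strand of chromosome 8. NOP56 (ENSG00000101361) spans 2652593 to 2658393 on the plus strand of chromosome 20. NOP2 (ENSG00000111641; 6556863 to 6568332, minus strand) and EMG1 (ENSG00000126749; 6970913 to 6979936, plus strand) both lie on chromosome 12.

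Ribosome biogenesis genes outside the 57 had a similar distribution. Their lists, like the 57, were chosen with earlier results of these data known. Of 97 measured genes in 4 further lists, 79 were above 0, 20 (20.6%) passed 1.5-fold upward beside the 4.53% of all genes, and 0 passed it downward. The median over these genes was 0.28. Other 40S factors had a median of 0.40 over 34 genes, with 11 (32.4%) at least 1.5-fold higher beside the same 4.53%. They were led by NOP9, with an FPKM of 28.5 in the siVCP-labelled library and 13.5 in the siNC-labelled library (2.12-fold [2.001 to 2.24]). BYSL, bystin, had 32.1 under the siVCP label and 16.1 under the siNC label (1.99-fold), and FCF1, a nuclease-like factor, was lowest at -0.42. Other 60S factors had a median of 0.24 over 47 genes, with 7 (14.9%) at least 1.5-fold higher. Within this list, MRTO4 was highest (44.1 under the siVCP label and 23.5 under the siNC label, 1.88-fold [1.76 to 2.02]) and NOP53 lowest (56.3 under the siVCP label and 79.2 under the siNC label, a log2 ratio of -0.49).

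The snoRNP assembly factors had a median of 0.11 over 10 genes. The AAA+ ATPase RUVBL1, which helps to build box C/D particles, was the 1 gene at least 1.5-fold higher (10%, beside 4.53% of all genes). It had an FPKM of 29.8 in the siVCP-labelled library and 18.5 in the siNC-labelled library. RUVBL2, the partner of RUVBL1, had 85.5 under the siVCP label and 67.6 under the siNC label (1.26-fold). RUVBL2 had the lowest log2 ratio, 0.33, of those reaching an FPKM of 5. Below that level 4 of the 10 genes were below 0, from WRAP53 at -0.09 to SHQ1 at -0.01. The other RNase P/MRP proteins were all above 0, with a median of 0.30 over 6 genes, a highest value of 0.59 for POP5 and a lowest of 0.10 for RPP25L. MYC had 14.4 under the siVCP label and 16.1 under the siNC label, a log2 ratio of -0.15, and the list of MYC and factors of ribosomal RNA transcription had a median of -0.11 over 9 genes, which turned to 0.035 over the 7 reaching an FPKM of 5. In that list MAX, the partner of MYC, had 7.52 under the siVCP label and 3.70 under the siNC label (2.03-fold [1.82 to 2.27]), and TAF1B had the lowest log2 ratio of those reaching an FPKM of 5, -0.18.

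Set beside related groups, the 57 genes lay above the ribosomal proteins that they help to assemble. Cytosolic ribosomal protein genes had a median log2 ratio of -0.05 over 81 genes, which turned to 0.0073 with CPM from the counts, and 21 of them were above 0. They ran from -0.40 (RPL23) to 0.63 (RPL15), the 1 gene (1.23%) at least 1.5-fold higher. RNA polymerase I subunits had a median of 0.20 over 13 genes with 2 (15.4%) at least 1.5-fold higher, CD3EAP being highest (0.71) and POLR1D lowest (-0.47). Their median turned to -0.027 over the 6 genes without counted overlaps on either strand. RNA exosome subunits had a median of 0.22 over 15 genes, with 3 (20%) at least 1.5-fold higher. The shares of these related groups stand beside 14.0% of the 57 genes and 4.53% of all genes. Among the exosome genes past 1.5-fold, EXOSC2 had an FPKM of 18.7 in the siVCP-labelled library and 6.54 in the siNC-labelled library. EXOSC1 was lowest of those reaching an FPKM of 5, at -0.28. With 1 library per group no difference between these groups was tested.

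**Figure D3:**
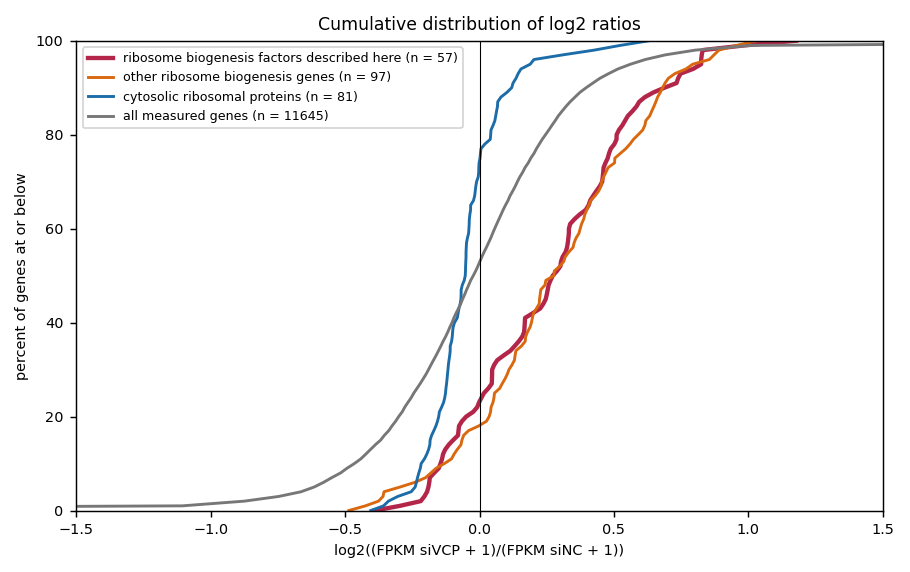
Curves give the percent of genes (vertical axis) at or below each log2 ratio (horizontal axis) for the 57 ribosome biogenesis factors, the 97 other ribosome biogenesis genes, the 81 cytosolic ribosomal proteins and all 11645 measured genes. The first 2 curves nearly coincide, with medians of 0.27 and 0.28, and the ribosomal proteins rise steeply near their median of -0.05.

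Log2 ratios in these libraries also followed base composition, in these genes as in the others. Across the 57 genes Spearman's rho with GC content of the longest protein-coding transcript was 0.56, and with its length it was -0.09. Over 9674 measured genes the values were 0.30 and -0.26. These points share the same 2 libraries and are not independent replicates. The 9674 genes were split into 5 bins of about equal size by GC content. In the bin of lowest GC content, the 15 genes of the group had a median log2 ratio of 0.05, against -0.19 for all genes in that bin. In the next bins 12 genes had a median of 0.12 against -0.07, 14 had 0.32 against 0.04, 10 had 0.52 against 0.09, and the 6 in the highest bin had 0.50 against 0.07. The group's median was thus above that of all genes in each GC bin.

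The same held across length. In the bin of shortest transcripts 13 genes had a median of 0.27 against 0.08 for all genes, and in the bin of longest transcripts 8 had 0.05 against -0.16. Set against the median of all genes in the same bin of both length and GC content, 46 of the 57 genes were above it, and the median difference over all 57 was 0.31. The group was also more abundant than most genes, with a median of the mean FPKM of 13.1 against 5.06. In the highest bin of abundance its 24 genes had a median of 0.31 against 0.08 for all genes. The part of base composition in the differences was not tested.

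**Figure D4:**
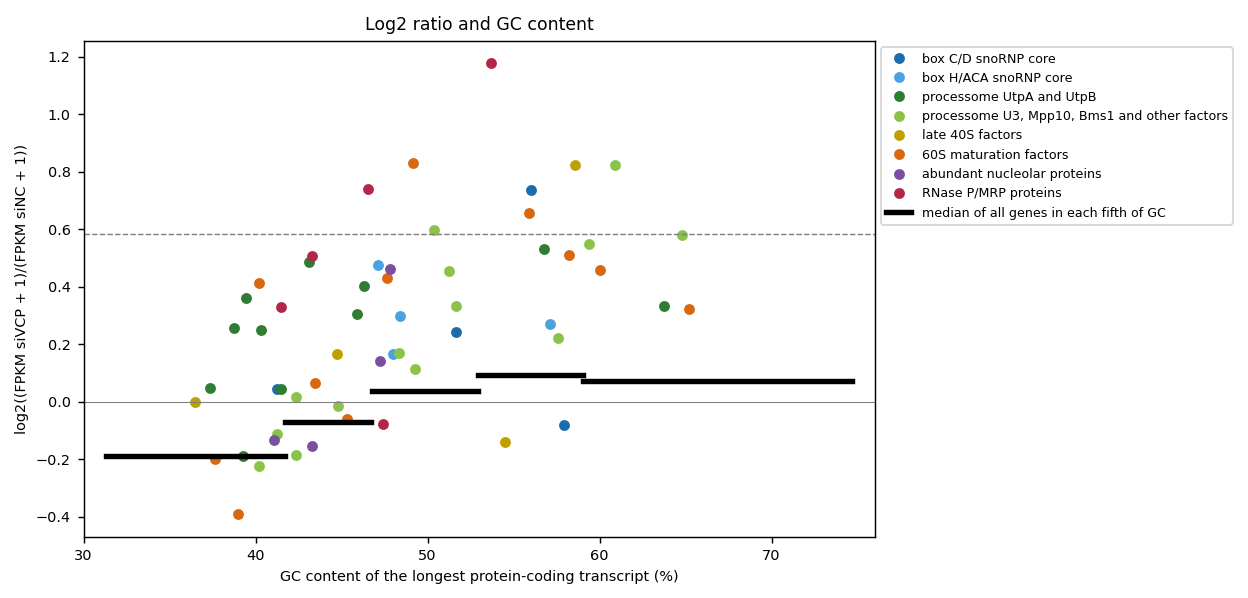
Points are the 57 genes by GC content of the transcript (horizontal axis, percent) and log2 ratio (vertical axis), colored by role, and black bars are the medians of all genes in each bin of GC content. The bars climb from -0.19 to 0.09 and then 0.07, and most points lie above the bar of their own bin. The dashed line marks 1.5-fold.

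Genes with and without the E-box covered much the same range of log2 ratios, and the difference was not tested. The 21 genes with the word had a median of 0.25, a lowest value of -0.20 (NOC3L) and a highest of 0.83 (EBNA1BP2), and 16 were above 0. The 29 genes without it had a median of 0.27, a lowest value of -0.39 (NMD3) and a highest of 1.18 (RPP38), and 21 were above 0. At least 1.5-fold higher were 3 genes with the word (14.3%) and 3 without it (10.3%), beside 5.41% and 3.41% of all measured genes with and without it. The range with the word lay wholly inside the range without it. Over all measured genes the medians were 0.02 with the word and -0.02 without it. Among the 85 other ribosome biogenesis genes with a window the word was found in 25.9%. Here the 22 genes with it had a median of 0.37, with 20 above 0 and 7 (31.8%) at least 1.5-fold higher. The 63 without it had a median of 0.25, with 49 above 0 and 11 (17.5%) at least 1.5-fold higher. These 2 shares stand beside the same 5.41% and 3.41% of all measured genes. The word was found among ribosomal proteins in 4 of 64 (6.25%).

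**Figure D5:**
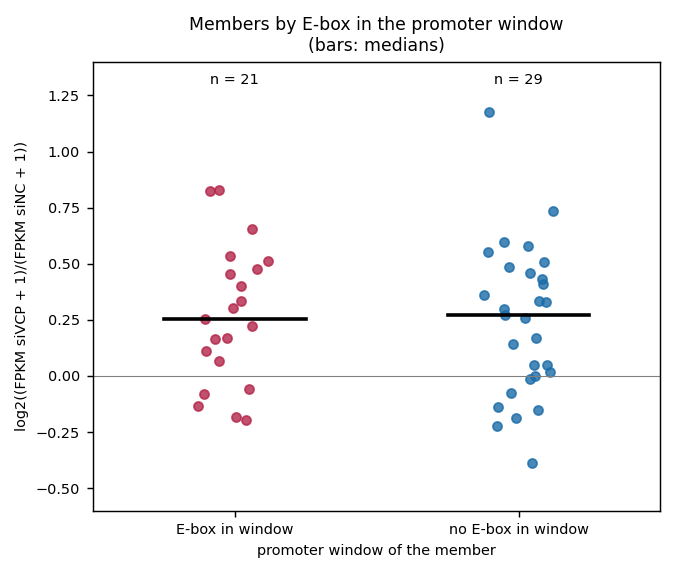
Points are log2 ratios of the genes with a promoter window, split by whether it holds CACGTG, and bars are medians. The 21 genes with the word and the 29 without it have medians of 0.25 and 0.27.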

How the data were processed

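The labels' protocols describe poly(A)-selected RNA of ARP1 cells and paired-end reads, from 1 library each under the siVCP and siNC labels. Per the submitters' processing notes, StringTie 1.3.0 and HISAT2 2.0 were used, in roles not stated. No build was given in the sources used here. Among 58394 identifiers also in GENCODE 29, 90.6% had the same start or end there, so coordinates are given as GRCh38. Likewise no strandedness was given, and overlapping rows on opposite strands cannot be told apart.

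The authors deposited levels as FPKM, and a row without counts was set to 0 here. The deposited estimated counts are whole numbers that pile up at multiples of 4 (1205 rows at 4, against 417 at 3 and 244 at 5, in the siVCP-labelled library), so that 1 fragment was taken as 4 counts, an inference. Exact conditional binomial 95% intervals of the count ratio were scaled to the FPKM fold. Since PCR copies cannot be recognised, intervals hold counting error alone. Rows of 1 symbol were summed, and a gene was used where either library reached an FPKM of 1. There was no count model or test. Each member had 1 row.

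The members, their roles and all lists were chosen with earlier results of these data known. The naming rule took VCP, the 8 members at each end of the log2 ratio, the extremes of each role and list, the snoRNP core proteins and members next to 1.5-fold, and most other members were added. Length and GC content came from GENCODE 29 basic transcripts, for 83.1% of the measured genes and all 57 members. RefSeq promoters (GRCh38.p14) were matched by symbol. BOP1, MPHOSPH10, NOLC1, NOP58, POP1, RRP12 and SNU13 had no entry. The list name NOPCHAP1 had no row. Steps were tested on simulated data. Software was scipy 1.17.1, pandas 2.3.3 and numpy 2.4.6 under Python 3.11.15, with figures by matplotlib 3.10.9.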

Additional observations from a re-analysis of the deposited data

How the results depend on the processing

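No paired analysis was possible because there was 1 library per label, which also means that none could be omitted. A median was taken to have moved when it left the range between the medians of its genes' lower and upper counting bounds. For the 57 genes this range was 0.14 to 0.41, and it is not the error of a median over many genes. The median log2 ratio of the 57 genes was 0.27 and ran from 0.17 to 0.38 over 11 alternatives, and it moved under none of them. No member past 1.5-fold changed sign, and UTP3 and RIOK2, both near 0, turned above it under 3 rescalings. Of the recomputed log2 ratios of single members 25 moved and 550 did not, and of the medians 16 moved and 182 did not. The count at least 1.5-fold higher, 8, was 5 with a pseudocount of 5, 13 with CPM from the counts, 1 at 2-fold and 3 without counted overlaps on either strand. The count at least 1.5-fold lower was 0 under all 12. With a pseudocount of 5 the medians of the 60S factors and of the other 40S factors were 0.28 and 0.28. With an FPKM of at least 5 those of the U3, Mpp10 and Bms1 group and of the snoRNP assembly factors were 0.39 and 0.37. With CPM from the counts the 60S factors had 0.52, the abundant nucleolar proteins 0.066 and the ribosomal proteins 0.0073. The ribosomal proteins had -0.027 once both libraries were scaled to 1 sum and -0.030 after centring. Without same-strand overlaps the box C/D median rested on FBL alone (-0.079) and that of the abundant nucleolar proteins was -0.13. Without overlaps on either strand these 2 values were the same, and the U3, Mpp10 and Bms1 group had 0.065, the other 40S factors 0.18 and the RNA polymerase I subunits -0.027. This last setting, which keeps 28 of the 57 genes, and the one with protein-coding rows were chosen after seeing the data. The cause was not tested. Over all genes, 528 passed 1.5-fold upward and 684 downward, and the same 2 counts became 770 and 1351 at a pseudocount of 0.1, 163 and 141 at one of 5, 1109 and 1740 scaled to 1 sum, 897 and 1349 with CPM from the counts, 336 and 467 without same-strand overlaps, 328 and 288 from an FPKM of 5 up, 363 and 450 with protein-coding rows, 184 and 273 without overlaps on either strand and 122 and 153 at 2-fold. Depth limits RPP40 and RIOK1 most, whose counts were the lowest in both libraries.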

Other observations

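Several of these genes host small nucleolar RNAs in their introns. Among the deposited rows 21 named SNORD or SNORA lay on the same strand inside 6 of the 57 genes, 5 of them in NOP56, 4 each in NOP58 and GNL3, 3 each in NCL and WDR43 and 2 in DKC1. None of these rows had more than 11 counts in a library. These RNAs lack a poly(A) tail, and the libraries were poly(A)-selected, so no level is given for them.

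BMS1 has pseudogene rows with sizeable counts. Its 7 rows held 847 counts in the siVCP-labelled library and 709 in the siNC-labelled library, which came to 23.3% under the siVCP label and 18.7% under the siNC label, relative to BMS1 itself. How reads were split between the gene and its copies was not tested.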
